A study of Mus musculus with 6 samples.

Results

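A set of 33 genes for the lysosome was examined in the liver of aged mice, out of 54115 genes quantified. The set was chosen by name and holds lysosomal hydrolases, lysosomal membrane proteins, subunits of the proton pump, and the transcription factors TFEB and TFE3. RNA-seq had been performed on whole liver of 3 WT and 3 *Sirt7* KO mice, which were all male, 24 months old and fasted for 16 h before collection. SIRT7 is a nuclear NAD-dependent deacylase, and the KO mice lack it throughout the body. They came from crosses of heterozygous parents on a C57BL/6J background, with WT littermates as controls. The KO line was of mixed background before it was backcrossed to C57BL/6J mice. The deleted exons are not given in the sources used here. Young or fed mice were not analysed here, so the values describe the genotype difference at 1 age and in 1 nutritional state.

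Lysosomes are acidic compartments in which hydrolases break down proteins, glycans and lipids that arrive by endocytosis or autophagy. A vacuolar proton pump keeps the lumen acidic, heavily glycosylated membrane proteins line the compartment, and transporters return the breakdown products to the cytosol. TFEB and TFE3 move to the nucleus when the kinase complex mTORC1 is less active, as in fasting, and bind an E-box type element in the promoters of many lysosomal genes. Hepatocytes and Kupffer cells, the macrophages of the liver, are both rich in lysosomes.

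*Sirt7* itself (ENSMUSG00000025138.14, GRCm38 chr11:120618372-120625240) was measured first as a check of the labels. Its level, as counts scaled to a common library size after TMM (CPM), was 55.2, 45.5 and 47.3 in the WT livers and 28.6, 41.8 and 40.8 in the *Sirt7* KO livers. Each *Sirt7* KO value was lower than each WT value, but reads remained on the gene and the difference did not pass the test (log2 fold change −0.41 ± 0.18 SE, adjusted p = 0.42 in edgeR). Per transcript length the order was the opposite, with 34.4, 28.3 and 27.3 TPM in WT and 34.7, 49.9 and 68.0 TPM in *Sirt7* KO livers. With transcript length offsets the log2 fold change was 0.80 in edgeR (adjusted p = 0.27) and 0.81 in DESeq2 (adjusted p = 0.072). The RNA-seq level of *Sirt7* therefore does not settle the genotypes, which are taken from the labels throughout. The paper genotyped its mice by PCR on tail DNA and also measured *Sirt7* in liver by qRT-PCR. Depth ranged from 9994860 to 13424776 reads on transcripts per mouse. The summed level of 6 hepatocyte markers was 65250 to 67536 CPM in WT and 70000 to 81218 CPM in *Sirt7* KO livers. With scaling to total counts only, WT 1 lay above *Sirt7* KO 1 in this sum. Of the 6 markers, 4 had a log2 fold change above 0 and 2 below. Only 1 of them, *Apoa1*, did not overlap between genotypes, and 0 had an unadjusted p under 0.05. The 7 lymphocyte markers together reached at most 10.2 CPM, and 4 neutrophil markers at most 6.78 CPM. Since whole liver was used, fewer cells of a type and less RNA per cell cannot be told apart.

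Differential expression was called at an adjusted p under 0.05 and a fold change over 1.5. Of the 33 genes, 32 had enough reads for the test and none was called, against 0.00798% of all 12524 genes tested, which is 1 gene. At an unadjusted p under 0.05, 2 of the 32 (6.25%) differed, *Gaa* with the lower and *Hexa* with the higher level in *Sirt7* KO livers, against 11.3% of all genes. DESeq2, which called 1.77% of genes without transcript length offsets and 1.87% with them, also called none of the 33. The smallest adjusted p in edgeR was 0.32.

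The lysosomal genes were among the better measured genes of these livers. Their coefficient of variation within a genotype had a median of 10.4%, from 4.26% for *Ctsa* to 45.4% for *Ctss*, where the median over all genes tested was 20.8%. Log2 fold changes ranged from −0.40 for *Gaa* to 0.43 for *Ctss*. The median log2 fold change was 0.04, beside −0.0061 for all genes, and the median size without its sign was 0.19, beside 0.23. The 95% interval of the fold change lay within 1.5-fold in either direction for 19 of 32 genes (59.4%), against 24.5% of all genes. It excluded a 2-fold difference for 31 of 32, the exception being *Ctss*, against 7434 of all 12524 genes tested. In direction, 18 genes (56.25%) were above 0 and 14 below, beside 49.3% of all genes above 0. But with scaling to total counts only, which moved the median of all genes to −0.11, 11 of the 32 were above 0.

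**Figure D1:**
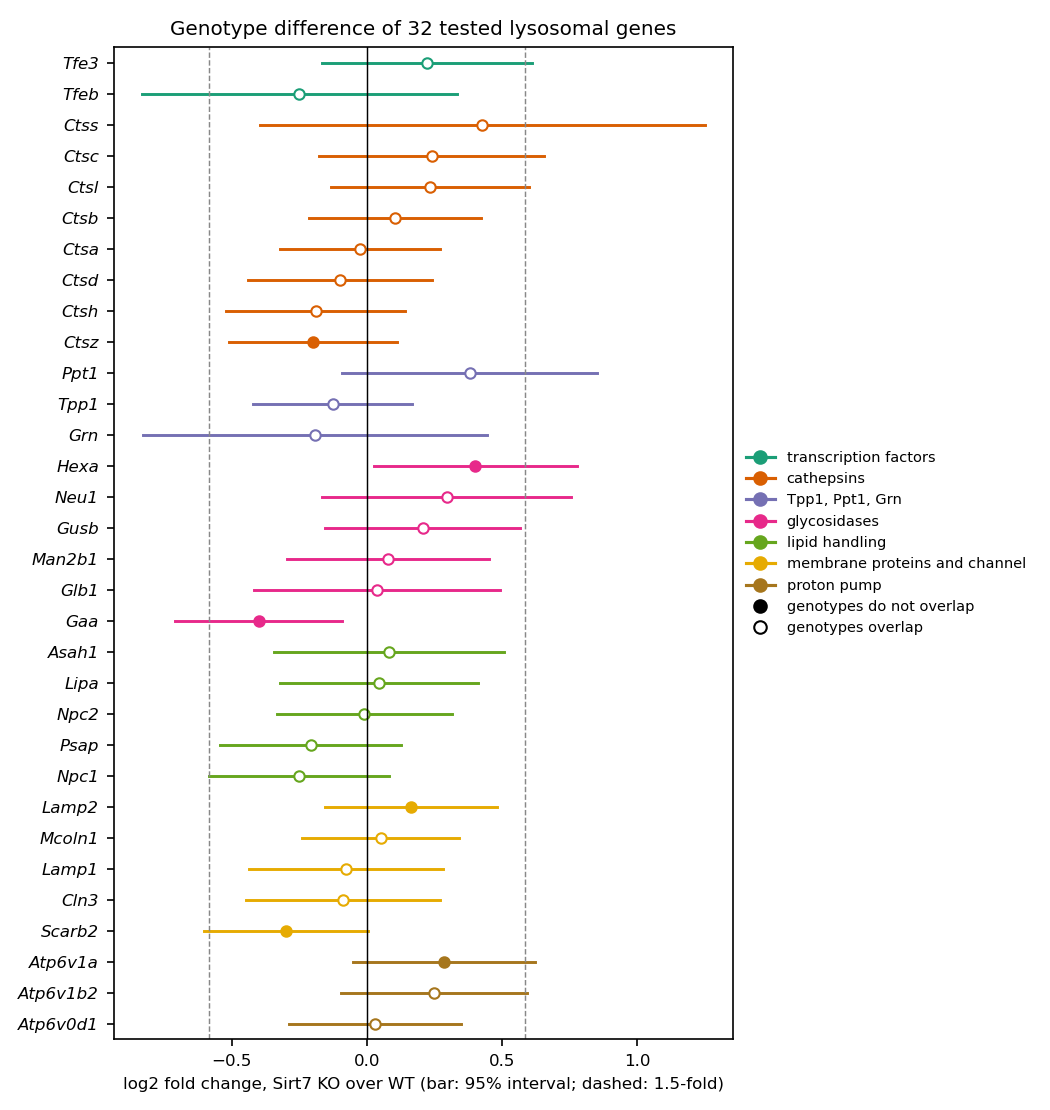
Log2 fold change (x axis, *Sirt7* KO over WT) of the 32 tested lysosomal genes (y axis), with the 95% interval from edgeR as a bar, the role of each gene as colour, and dashed lines at 1.5-fold. Filled points mark the 6 genes for which all 3 mice of a genotype lay above all 3 of the other, and the intervals of *Gaa* and *Hexa* do not cross 0.

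The summed level of the 33 genes was 5201, 5877 and 5548 CPM in the WT livers and 5448, 5587 and 5395 CPM in the *Sirt7* KO livers. The means were 5542 ± 338 and 5477 ± 99.3 (SD, n = 3), a ratio of 0.988. After TMM the 33 genes together took between 0.520% and 0.588% of the scaled library, which is not their raw share of reads. The TMM factor was 1.123 in WT 1 and 0.950 to 1.013 in the other livers. With scaling to total counts only, each *Sirt7* KO sum lay below each WT sum. The median log2 fold change of all genes was then −0.11. Among the 7 groups by role, the 8 cathepsins summed to 2561 ± 103 CPM in WT and 2575 ± 110 CPM in *Sirt7* KO livers, and the membrane proteins to 1224 ± 95.5 and 1228 ± 75.6 CPM. The 7 glycosidases reached 382 ± 21.9 and 386 ± 40.6 CPM, and the 5 lipid genes 804 ± 65.7 and 741 ± 31.1 CPM. In 6 of the 7 groups the genotypes overlapped. The exception was the proton pump, whose 3 subunits summed to 109, 106 and 107 CPM in WT and 111, 117 and 134 CPM in *Sirt7* KO livers. This rested on the scaling, as with total counts only WT 1 lay above *Sirt7* KO 1 and 2. Among all single genes tested, 16.8% did not overlap.

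**Figure D2:**
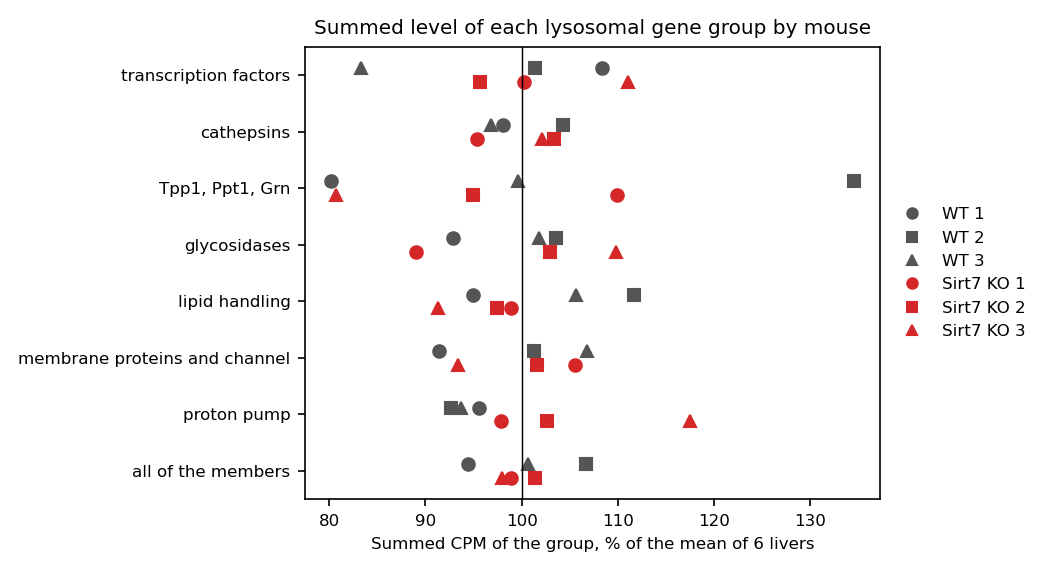
Summed CPM of each group of lysosomal genes in each liver (points), as a percentage of the mean of the 6 livers (x axis), for WT (grey) and *Sirt7* KO (red). The sum of all 33 genes stayed between 94.4% and 107% of its mean, and only the proton pump has every *Sirt7* KO liver to the right of every WT liver.

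Levels per transcript length (TPM, summed per gene) spread over a wide range. The 10 genes with the highest mean over the 6 livers, 6 of them cathepsins, held 84.0% of the summed TPM of the set. *Ctsl* led with 597 ± 142 TPM (SD, n = 6), followed by *Ctsh* (416), *Ctsb* (281), *Ctsz* (254), *Lamp2* (241) and *Lamp1* (218). Below them came *Ctsd* (166), *Grn* (158), *Psap* (125) and *Ctsa* (114), and then *Lipa* at 68.4 TPM. Among the tested genes, *Tfe3* (5.13), *Tfeb* (4.61) and *Glb1* (4.22) had the lowest TPM, so *Ctsl* stood 141-fold above *Glb1*. Of the 32 steps between neighbours in this order, 28 were within the spread of the livers, as their ranges overlapped. The 4 steps with no overlap lay below *Lamp1*, below *Ctsa*, below *Lipa* and above *Gla*.

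**Figure D3:**
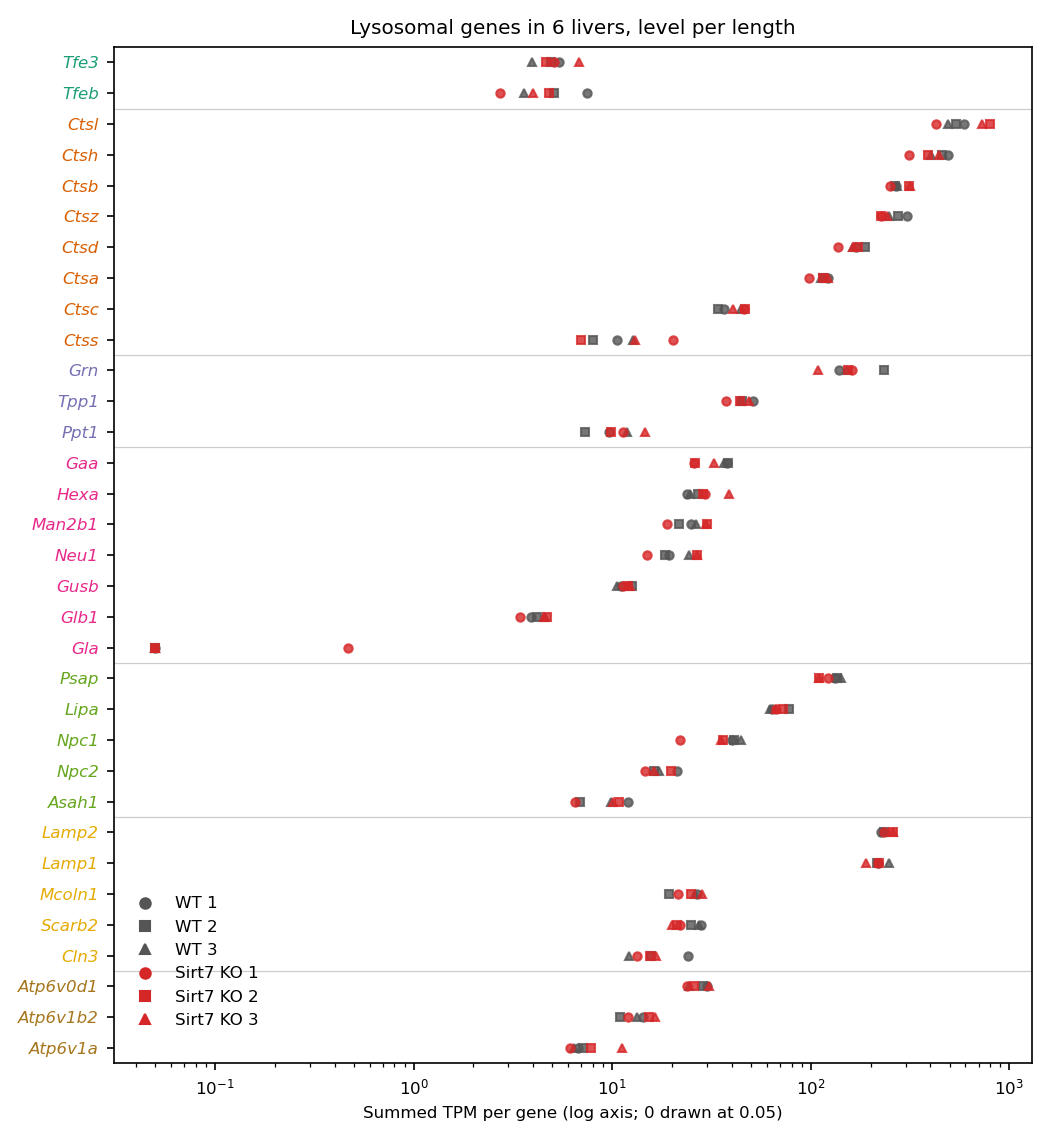
Summed TPM of each of the 33 genes (y axis, grouped by role) in each of the 6 livers (points) on a log x axis, with WT in grey and *Sirt7* KO in red. *Lamp1*, *Lamp2* and 6 of the 8 cathepsins lie at the right, *Ctsc* (41.5 TPM) and *Ctss* (11.9 TPM) further left, the transcription factors near 5 TPM, and *Gla* was listed at 0 in 5 livers, drawn at 0.05.

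The transcription factors were measured with few reads, 67 to 137 per liver for *Tfeb* and 151 to 218 for *Tfe3*. *Tfeb* stood at 11.6, 9.07 and 7.18 CPM in WT and 6.14, 8.90 and 8.38 CPM in *Sirt7* KO livers, with a log2 fold change of −0.25 ± 0.26 (SE) and overlapping genotypes. This value was −0.06 without WT 1, −0.10 without *Sirt7* KO 1, −0.40 without WT 3 and −0.43 with transcript length offsets in edgeR. *Tfe3* stood at 16.6, 17.3 and 14.5 CPM in WT and 20.0, 16.0 and 20.5 CPM in *Sirt7* KO livers, with a log2 fold change of 0.22 ± 0.17. Neither differed beyond the spread between mice (adjusted p = 0.77 and 0.68 in edgeR). Both factors act mainly through their place in the cell, which RNA levels do not show.

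The element that TFEB and TFE3 bind was searched in the promoters of the lysosomal genes. Because it is known from the promoters of many lysosomal genes, its frequency here is a description and not an independent test. RefSeq promoters of GRCm38.p6, from 250 bases before to 50 bases after a start site, were at hand for 28 of the 33 genes, and not for *Asah1*, *Atp6v1b2*, *Ctsb*, *Ctsh* and *Npc1*. The palindrome TCACGTGA was present in 7 of the 28 (25.0%), against 1.12% of the 27025 genes with such a promoter. It was present in 7 of 76 (9.21%) other lysosomal genes. The shorter TCACGTG, on either strand and counting the copies inside the palindrome, was present in 10 of 28 (35.7%), against 4.29% of all genes, and its core CACGTG in 11 of 28 (39.3%), against 8.09%. Among the other lysosomal genes, TCACGTG was present in 19 of 76 (25.0%) and CACGTG in 20 of 76 (26.3%). The stretches below, read 5′ to 3′ on the strand of the gene, show 1 match each in capitals in 3 pump and channel genes, in 3 other genes with the palindrome, and in *Gaa* and *Lamp1*, which hold the shorter form. Stretches that touch an exon annotated in GENCODE M21 are kept short. The *Lamp1* promoter holds 4 copies of the shorter form, of which the stretch shows the first in capitals and another in lower case.
*Atp6v0d1*, chr8:105566051-105566078, minus strand: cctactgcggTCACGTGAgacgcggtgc
*Atp6v1a*, chr16:44139358-44139417, minus strand: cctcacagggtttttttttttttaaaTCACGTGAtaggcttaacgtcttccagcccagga
*Mcoln1*, chr8:3500463-3500490, plus strand: ggcgccccgcTCACGTGAccgcggcgca
*Cln3*, chr7:126583341-126583368, minus strand: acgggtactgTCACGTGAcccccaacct
*Ctsa*, chr2:164833750-164833777, plus strand: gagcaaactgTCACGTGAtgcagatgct
*Ctsd*, chr7:142387909-142387936, minus strand: cgcccgcgtcTCACGTGAcccgttgagg
*Gaa*, chr11:119267796-119267854, plus strand: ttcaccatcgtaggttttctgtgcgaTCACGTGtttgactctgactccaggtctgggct
*Lamp1*, chr8:13159073-13159131, plus strand: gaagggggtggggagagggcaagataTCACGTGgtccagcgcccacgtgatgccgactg

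The genes with the palindrome had no common direction between the genotypes. The 6 of them that were tested (*Atp6v0d1*, *Atp6v1a*, *Cln3*, *Ctsa*, *Ctsd* and *Mcoln1*) had log2 fold changes from −0.10 to 0.28, with 3 above and 3 below 0 and a median of 0.0032. For the 21 tested genes whose promoter holds no palindrome, the values ran from −0.40 to 0.43 with a median of 0.04. *Gla*, the seventh, holds 2 copies but had 0 reads in 5 livers and 19 in *Sirt7* KO 1. A count of 0 allows up to 3 reads, or 0.222 to 0.318 CPM at these depths. *Gla* encodes alpha-galactosidase A.

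The cathepsins, proteases of the lysosomal lumen, had nearly equal summed CPM in both genotypes after TMM, and 0 of 8 had an unadjusted p under 0.05. *Ctsl*, a cysteine protease with the highest TPM of the set, was at 520, 466 and 458 CPM in WT and 486, 661 and 552 CPM in *Sirt7* KO livers. Its log2 fold change was 0.23 ± 0.16 (SE), or 0.11 without *Sirt7* KO 2, and the genotypes overlapped because *Sirt7* KO 1 lay below WT 1. *Ctsz*, a carboxypeptidase (ENSMUSG00000016256.10, chr2:174427493-174439039), was at 404, 411 and 359 CPM in WT and 349, 327 and 347 CPM in *Sirt7* KO livers. The genotypes did not overlap, yet the gap between WT 3 and *Sirt7* KO 1 was small beside the spread (log2 fold change −0.20 ± 0.14, unadjusted p = 0.18 in edgeR).

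The other cathepsins overlapped between genotypes. The aspartic protease *Ctsd* was at 327 to 428 CPM over the 6 livers, *Ctsb* at 512 to 618, *Ctsh* at 345 to 465, *Ctsa* at 204 to 226 and *Ctsc* at 77.9 to 126 CPM. Their log2 fold changes ran from −0.19 for *Ctsh* to 0.24 for *Ctsc*. Parts of these transcripts are not unique to the gene. Of the 31-base words of *Ctsd*, 33.2% also occur in other genes, most in *Gm49369*, which was given 0, 0 and 145 reads in WT and 9, 159 and 150 reads in *Sirt7* KO livers. The share was 28.2% for *Ctsl*, 14.6% for *Ctsa* and 13.0% for *Ctsb*. *Ctsd* itself had 3530 to 4799 reads per liver, and *Gm47123*, which shares most words with *Ctsl*, at most 18 reads. *Ctsb*, with 5683 to 7777 reads, overlaps *Fdft1*, which was given 59, 438 and 118 reads in WT and 408, 2404 and 1143 reads in *Sirt7* KO livers. How the counting split the shared words was not tested. In *Ctsh*, 76.8% of the reads were on a transcript annotated for nonsense-mediated decay.

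*Ctss*, a cysteine protease known from antigen-presenting cells, varied most. It was at 13.0, 11.2 and 17.1 CPM in WT and 28.9, 9.32 and 17.1 CPM in *Sirt7* KO livers, and was chosen for this description after its values were seen. *Sirt7* KO 1 was the highest and *Sirt7* KO 2 the lowest of the 6 livers. The log2 fold change of 0.43 ± 0.36 (SE) became −0.05 without *Sirt7* KO 1. The summed level of 10 Kupffer cell and macrophage markers moved alongside, with 91.5, 99.4 and 236 CPM in WT and 241, 90.6 and 178 CPM in *Sirt7* KO livers. None of these 10 markers passed an unadjusted p of 0.05 between genotypes, none was at 0 in every liver, and their part in the *Ctss* values was not tested.

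In the group of *Grn*, *Tpp1* and *Ppt1*, *Grn*, which encodes progranulin, was at 214, 441 and 285 CPM in WT and 338, 285 and 200 CPM in *Sirt7* KO livers. WT 2 was the highest and *Sirt7* KO 3 the lowest, and the log2 fold change of −0.19 ± 0.28 turned to 0.14 without WT 2. *Tpp1*, a tripeptidyl peptidase, stayed within 87.2 to 103 CPM. *Ppt1*, a thioesterase that removes palmitate from proteins, spanned 19.7 to 37.5 CPM with a log2 fold change of 0.38 ± 0.21 and overlapping genotypes.

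Glycosidases, which cleave sugars from glycogen, glycolipids and glycoproteins, held both lysosomal genes of the set with an unadjusted p under 0.05, and these pointed in opposite directions. *Gaa* encodes acid alpha-glucosidase, the enzyme that breaks down glycogen in the lysosome (ENSMUSG00000025579.14, chr11:119267887-119285454). It was at 134, 152 and 141 CPM in WT and 106, 101 and 117 CPM in *Sirt7* KO livers, so that every *Sirt7* KO liver lay below every WT liver. The log2 fold change was −0.40 ± 0.14 (SE), with a 95% interval from −0.71 to −0.09, an unadjusted p of 0.0168 and an adjusted p of 0.32 in edgeR. The difference did not pass the correction over all genes. *Gaa* lies on the same chromosome as *Sirt7* (chr11:120618372-120625240), and the KO line was of mixed background before backcrossing. Whether DNA that flanks the KO allele has a part in the *Gaa* values was not tested.

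*Hexa* encodes the alpha subunit of beta-hexosaminidase, which degrades GM2 ganglioside (ENSMUSG00000025232.8, chr9:59539540-59565109). It was at 46.1, 59.4 and 51.9 CPM in WT and 65.9, 60.6 and 81.3 CPM in *Sirt7* KO livers, and the lowest *Sirt7* KO liver was just above the highest WT liver. The log2 fold change was 0.40 ± 0.17 (SE), with a 95% interval from 0.03 to 0.78, an unadjusted p of 0.0388 and an adjusted p of 0.40 in edgeR. Of its 31-base words, 11.4% occur in other genes, most in *Tmem202*, which had at most 2 reads in a liver. The promoter of *Hexa* holds none of the motifs searched, and that of *Gaa* holds the shorter one. The other glycosidases overlapped between genotypes, with log2 fold changes of 0.04 for *Glb1* (beta-galactosidase), 0.08 for *Man2b1* (alpha-mannosidase), 0.21 for *Gusb* (beta-glucuronidase) and 0.30 for *Neu1* (sialidase).

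**Figure D4:**
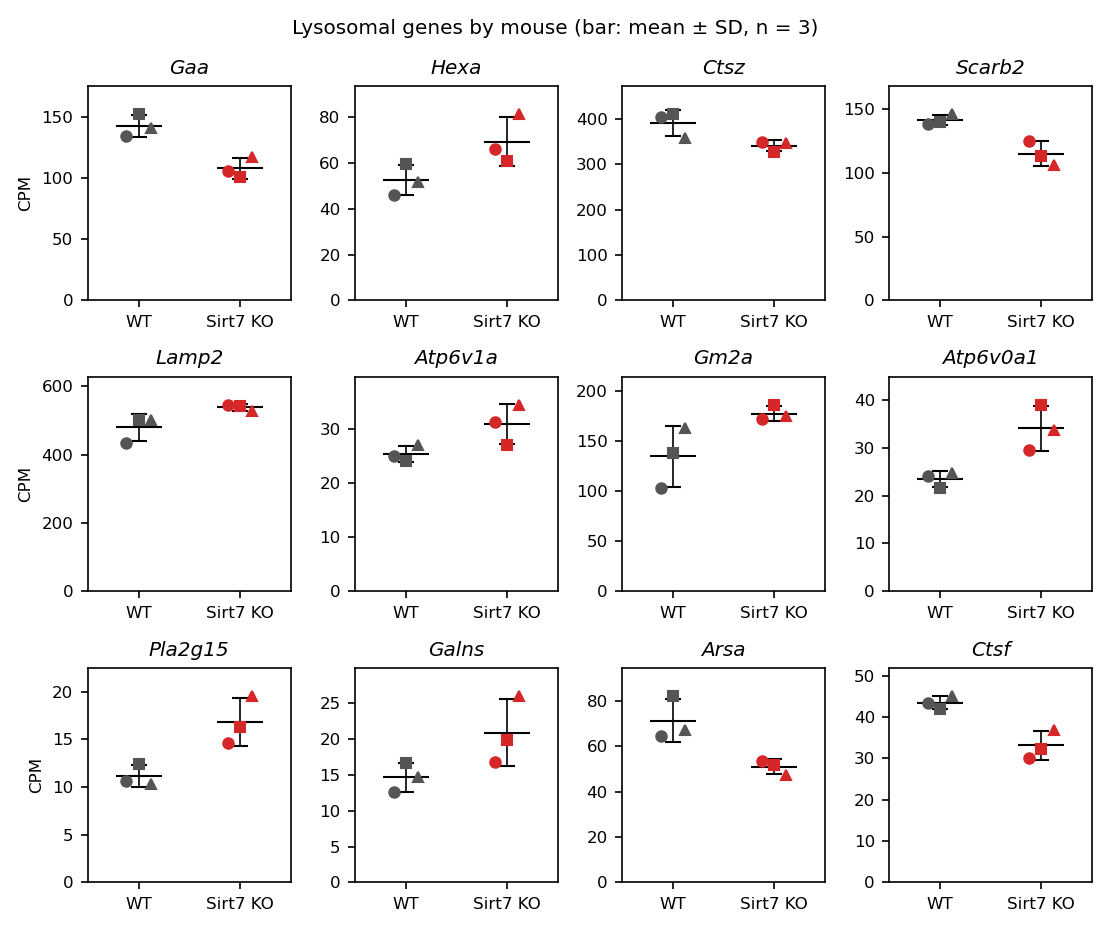
CPM in each liver (points, circle, square and triangle for mouse 1, 2 and 3) of the 6 genes of the set whose genotypes do not overlap and of 6 other lysosomal genes, with the mean ± SD of 3 mice; all y axes start at 0. *Gaa*, *Ctsz*, *Scarb2*, *Arsa* and *Ctsf* were lower in every *Sirt7* KO liver, and the other 7 genes were higher. The 6 other lysosomal genes were chosen by their values, so their separation is no independent result.

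Among the genes for lipid handling, 0 of 5 had an unadjusted p under 0.05, and all 5 intervals of the fold change lay within 1.5-fold. *Psap* encodes prosaposin, the precursor of the saposins that present sphingolipids to their hydrolases, and had the highest TPM of this group. It was at 347, 402 and 406 CPM in WT and 372, 315 and 313 CPM in *Sirt7* KO livers, with *Sirt7* KO 1 inside the WT range and a log2 fold change of −0.21 ± 0.15 (SE). The cholesterol exporters *Npc1* and *Npc2* had log2 fold changes of −0.25 and −0.0093, the acid lipase *Lipa* 0.04, and the acid ceramidase *Asah1* 0.08. Transcripts with a retained intron held 36.7% of the reads of *Npc2* and 35.7% of those of *Asah1*.

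The membrane proteins LAMP1 and LAMP2 are the most abundant proteins of the lysosomal membrane. *Lamp1* (ENSMUSG00000031447.7, chr8:13159161-13175338) was at 481, 538 and 595 CPM in WT and 556, 527 and 447 CPM in *Sirt7* KO livers, with WT 3 the highest and *Sirt7* KO 3 the lowest (log2 fold change −0.08 ± 0.16). *Lamp2* (ENSMUSG00000016534.15, chrX:38401357-38456454) was at 435, 503 and 503 CPM in WT and 546, 542 and 527 CPM in *Sirt7* KO livers. The genotypes did not overlap, but differed by 1.12-fold in the means only (log2 fold change 0.16 ± 0.14, or 0.09 without WT 1, unadjusted p = 0.27 in edgeR).

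*Scarb2* encodes LIMP-2, which carries glucocerebrosidase to the lysosome (ENSMUSG00000029426.8, chr5:92441314-92506833). It was at 138, 140 and 146 CPM in WT and 125, 113 and 106 CPM in *Sirt7* KO livers. The WT livers lay close together and above every *Sirt7* KO liver, and the log2 fold change was −0.30 ± 0.13 (SE, unadjusted p = 0.053 and adjusted p = 0.45 in edgeR). *Mcoln1*, the calcium channel of the lysosome, stayed within 41.8 to 47.3 CPM, and *Cln3*, a membrane protein lost in juvenile neuronal ceroid lipofuscinosis, within 16.1 to 20.9 CPM, and both overlapped between genotypes.

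*Lamp2* is spliced to different last exons, which give the membrane protein another short tail inside the membrane and the cytosol. LAMP-2A is known as the receptor of chaperone-mediated autophagy. The 3 annotated tails share their first 370 residues and differ in the last 45 or 46. Lamp2a (ENSMUST00000016678.13, last exon chrX:38405062-38405571) held 77.4%, 79.4% and 72.8% of the *Lamp2* reads in WT and 70.0%, 77.2% and 79.7% in *Sirt7* KO livers. Lamp2b (ENSMUST00000061755.8, last exon chrX:38419507-38421851) held 21.6%, 20.1% and 26.5% in WT and 29.3%, 21.8% and 19.1% in *Sirt7* KO livers. Exact 95% binomial intervals of the Lamp2b share reached from 25.5% to 27.6% in WT 3 and from 28.2% to 30.5% in *Sirt7* KO 1. They treat estimated counts as observed reads and leave out the error of assigning reads from shared exons. They are therefore too narrow even for counting error, and do not cover the spread between mice. Lamp2c (ENSMUST00000074913.11) held 0.272% to 0.813%.

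The genotypes did not separate in their use of *Lamp2* isoforms. The Lamp2a share was 76.5% ± 3.40 in WT and 75.6% ± 5.01 in *Sirt7* KO livers (SD, n = 3 each), and the difference of −0.91 percentage points gave p = 0.8 in a two-sided exact permutation test, which cannot go below 0.1 here. For Lamp2b the shares were 22.7% ± 3.39 and 23.4% ± 5.30 (p = 0.8, exact permutation test), and both signs turned when WT 2 or *Sirt7* KO 1 was left out. WT 3 and *Sirt7* KO 1 had the highest Lamp2b shares, and the same 2 livers had the highest summed levels of macrophage markers, 236 and 241 CPM, and of 6 stellate cell and fibroblast markers, 226 and 230 CPM against 145 to 188 CPM in the other 4. Both marker lists were named here after their values were seen, and in none of the other marker lists were these livers the 2 highest. Sinusoidal endothelial markers summed highest in *Sirt7* KO 3 (103 CPM), and cholangiocyte markers lowest in WT 3 (47.3 CPM). In WT 3, *Marco* alone gave 42.8 of the 236 CPM and *Dcn* 170 of the 226 CPM. The part of macrophages, stellate cells and fibroblasts in the isoform shares was not tested.

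**Figure D5:**
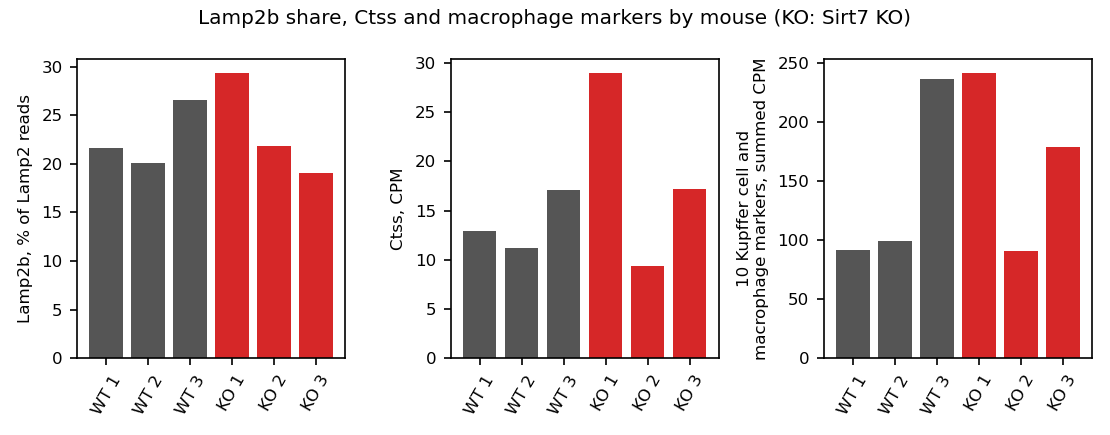
Share of *Lamp2* reads on Lamp2b (left, %), *Ctss* (middle, CPM) and the summed 10 Kupffer cell and macrophage markers (right, CPM) in each liver, with WT bars in grey and *Sirt7* KO bars in red. WT 3 and *Sirt7* KO 1 have the highest bars for Lamp2b and for the markers, and *Sirt7* KO 1 also for *Ctss*.

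The proton pump acidifies the lumen by coupling ATP hydrolysis in its cytosolic V1 part to proton flow through the V0 part in the membrane. *Atp6v1a*, a catalytic V1 subunit (ENSMUSG00000052459.13, chr16:44085402-44139705), was at 25.1, 24.1 and 26.9 CPM in WT and 31.3, 27.0 and 34.4 CPM in *Sirt7* KO livers. The genotypes met without overlapping at WT 3 and *Sirt7* KO 2, and the log2 fold change was 0.28 ± 0.15 (SE, unadjusted p = 0.088 in edgeR). *Atp6v1b2*, a further V1 subunit, was at 34.4 to 40.1 CPM in WT and 38.8 to 50.4 CPM in *Sirt7* KO livers, with a log2 fold change of 0.25 ± 0.15. *Atp6v0d1*, a V0 subunit, was at 43.6, 47.0 and 39.9 CPM in WT and 41.2, 43.1 and 48.9 CPM in *Sirt7* KO livers, with a log2 fold change of 0.03 ± 0.14, which was −0.08 with scaling to total counts only.

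Genotypes did not overlap for 6 of the 32 genes (18.8%), against 16.8% of all genes tested. Those higher in *Sirt7* KO livers were *Hexa*, *Lamp2* and *Atp6v1a*, where the background was 8.74%, and those lower were *Gaa*, *Ctsz* and *Scarb2*, where it was 8.09%. This split depended on the scaling. With total counts only, 8 genes did not overlap, beside 18.5% of all genes, and *Hexa*, *Lamp2* and *Atp6v1a* were not among them. These were *Psap*, *Ctsd*, *Ctsz*, *Npc1*, *Gaa*, *Scarb2*, *Tpp1* and *Ctsh*, all lower in *Sirt7* KO livers. With the extremes counted by mouse, each of the 6 livers was the highest for 2 to 8 and the lowest for 3 to 8 of the 32 genes. WT 1 was the highest for 2 and the lowest for 7, beside 19.95% and 18.36% of all genes. *Sirt7* KO 1 was the highest for 3 and the lowest for 8, beside 18.64% and 18.22%.

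Beyond the set, 99 other lysosomal genes in 5 lists were counted, of which 95 were tested, 0 were called in edgeR, and 6 (6.32%) had an unadjusted p under 0.05, 4 higher and 2 lower in *Sirt7* KO livers, where the background was 6.54% and 4.78%. DESeq2 called 1 of the 99 with length offsets, *Atp6v0a2* (log2 fold change −2.81, adjusted p = 0.043), whose log2 fold change was −0.09 in edgeR, and 0 without them. The other 15 subunits of the proton pump did not follow *Atp6v1a*, as 4 had a log2 fold change above 0 and 11 below, and their sum was 950 ± 37.8 CPM in WT and 890 ± 25.4 CPM in *Sirt7* KO livers. *Atp6v0a1*, a large membrane subunit, was at 24.0, 21.6 and 24.8 CPM in WT and 29.4, 38.9 and 33.7 CPM in *Sirt7* KO livers (log2 fold change 0.53 ± 0.16, unadjusted p = 0.0077 and adjusted p = 0.24 in edgeR).

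The list of 32 other hydrolases and activators held the remaining 5. *Gm2a*, the activator protein that lifts GM2 ganglioside out of the membrane for its hydrolysis, was at 103, 138 and 163 CPM in WT and 171, 186 and 174 CPM in *Sirt7* KO livers. Its log2 fold change was 0.40 ± 0.18 (unadjusted p = 0.057 in edgeR), or 0.23 without WT 1, and it was chosen for this description after its values were seen.

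The lysosomal phospholipase *Pla2g15* was at 10.7, 12.4 and 10.3 CPM in WT and 14.7, 16.3 and 19.6 CPM in *Sirt7* KO livers (log2 fold change 0.60 ± 0.19). *Galns*, a sulfatase of keratan and chondroitin sulfate, was at 12.6, 16.7 and 14.6 CPM in WT and 16.8, 19.8 and 26.0 CPM in *Sirt7* KO livers (log2 fold change 0.51 ± 0.21, or 0.32 without *Sirt7* KO 3). On the lower side, *Arsa*, the sulfatase of sulfatides, was at 64.4, 82.1 and 67.0 CPM in WT and 53.7, 51.8 and 47.2 CPM in *Sirt7* KO livers (log2 fold change −0.48 ± 0.15). With transcript length offsets it was −0.80 in edgeR and −0.79 in DESeq2 (adjusted p = 0.058). The cysteine protease *Ctsf* was at 43.4, 41.9 and 45.1 CPM in WT and 30.1, 32.3 and 37.0 CPM in *Sirt7* KO livers (log2 fold change −0.39 ± 0.14). None of these 4, named for their small unadjusted p, overlapped between genotypes, and their adjusted p in edgeR was 0.26 to 0.39. Of the 95 other lysosomal genes tested, 14 (14.7%) did not overlap, against 16.8% of all genes.

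In the remaining lists, 0 of 20 tested lysosomal membrane proteins, 0 of 12 genes for sorting to the lysosome, and 0 of 17 tested genes of the TFEB family and its mTORC1 control had an unadjusted p under 0.05. The sorting genes summed to 299, 287 and 285 CPM in WT and 301, 320 and 327 CPM in *Sirt7* KO livers, so all *Sirt7* KO livers were above all WT livers, and 8 of the 12 had a log2 fold change above 0. With total counts only, WT 1 had the highest sum of these genes and the genotypes overlapped. The mTORC1 control genes summed to 421 ± 20.5 and 405 ± 15.8 CPM and overlapped. All 99 other genes together summed to 3526 ± 107 CPM in WT and 3541 ± 89.6 CPM in *Sirt7* KO livers, a ratio of 1.00.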

How the data were processed

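The authors trimmed reads with Trim Galore 0.6.5 and quantified them on the GRCm38 transcriptome with Salmon 1.2.1. They deposited, per mouse and transcript, an estimated count and TPM, which is scaled to transcript length and to a total per mouse. SMART-seq HT and Nextera XT libraries do not keep strand. Here the estimated counts were summed per GENCODE M21 gene and rounded. Of 140992 transcripts, 139172 matched with the same version, 619 with another version, and 1201 had no gene and were left out. TPM was summed per gene for levels between genes.

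Genotypes were compared in edgeR 4.0.16 (R 4.3.3) by the quasi-likelihood test, with TMM, filterByExpr (minimum count 10) and Benjamini-Hochberg adjustment over 12524 genes. This test was checked on simulated counts. DESeq2 1.42.0, with or without average transcript length offsets, other normalizations and filters, a replicate block, and leaving out each mouse were alternatives. The mice were separate animals.

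The genes and lists were chosen with earlier results of these data known. Values per mouse are given for genes with an unadjusted p under 0.05, genes with no overlap between genotypes, the gene with the highest TPM in each group, *Tfeb*, *Tfe3*, *Lamp1* and *Lamp2*, and up to 10 other lysosomal genes with an unadjusted p under 0.05, of which 1 is not reported here.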

Additional observations from a re-analysis of the deposited data

How the results depend on the processing

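None of the 33 genes was called under any setting run. The number of all genes called, 1 in the edgeR fit above, was 2 with total counts only or with length offsets in edgeR. It was 633 with no filter beyond 1 read, and 256 and 242 in DESeq2 without and with length offsets. DESeq2 after tximport was the test that the paper itself used. When 1 mouse was left out, 0 to 252 genes were called, the highest without *Sirt7* KO replicate 1. The causes were not tested. The count of lysosomal genes with an unadjusted p under 0.05, 2 in the edgeR fit above, was 1 in DESeq2 with length offsets (*Gla*), beside 5.37% of all genes. It was 1 to 5 when 1 mouse was left out, beside 7.59% to 17.1% of all genes. The 5, without *Sirt7* KO replicate 1, were *Atp6v1b2*, *Neu1*, *Hexa*, *Gaa* and *Scarb2*, beside 17.1% of all genes. Genes with no overlap, 6 in the edgeR fit above, numbered 9 to 13 when 1 mouse was left out, as fewer mice are compared. The background was then 23.7% to 36.4% of all genes. They numbered 8 with total counts only, all lower in *Sirt7* KO livers. *Atp6v1a* was also not among them with upper quartile scaling, a filter at a mean of 50 reads, or length offsets in edgeR. The other lysosomal genes with an unadjusted p under 0.05, 6 in the edgeR fit above, numbered 4 to 10 over the settings. The background over the same settings was 5.16% to 17.1% of all genes.

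With the replicate number as a block, 41 genes were called, none of them lysosomal. *Gaa* and *Ppt1* then had an unadjusted p under 0.05, beside 11.4% of all genes. Mice with the same number were different animals, and their deviations correlated by 0.065, 0.08 and −0.044, so the numbers were not used for pairing, and not every mouse correlated best with its own number. The sign of the log2 fold change turned for *Atp6v0d1* with total counts only (−0.078) and without 1 mouse (−0.044 to 0.091), and for *Ctss* (−0.051 to 0.74), *Grn* (−0.41 to 0.14) and *Lamp1* (−0.16 to 0.0095) when 1 mouse was left out. The Lamp2a difference ran from −2.93 to 1.90 and the Lamp2b difference from −2.28 to 2.84 percentage points when 1 mouse was left out. With total counts only, the log2 fold change was 0.18 for *Atp6v1a*, 0.12 for *Ctsl*, −0.31 for *Ctsz*, −0.18 for *Lamp1*, 0.06 for *Lamp2* and 0.12 for *Tfe3*. For *Sirt7* it turned to 0.80 and 0.81 with length offsets in edgeR and DESeq2. With the default filter, *Gla* had too few reads for the test.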
